A study of Homo sapiens with 4 samples.

Results

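The genes described here are 10 well-known transcriptional targets of the tumour suppressor p53: CDKN1A, MDM2, SFN, GDF15, TP53I3, SESN1, BTG2, TP53INP1, GADD45A and FAS. They were chosen by name, and all 10 had a row among the 37810 gene names of the deposited table. MDM2 was not above background on any array, so 9 of the 10 entered the tests. The study depleted FOXF2, a forkhead transcription factor, with small interfering RNA (siRNA), in normal-like and in metastatic breast epithelial cells, to learn which genes depend on it. The groups measured were: MDA-MB-231 cells with FOXF2 siRNA, MDA-MB-231 cells with control siRNA, MCF10A cells with FOXF2 siRNA and MCF10A cells with control siRNA. All cells were transfected with 20 nM siRNA, total RNA was taken after 48 h, and each group was read on 1 Illumina BeadChip array. The MDA-MB-231 line came from a metastatic breast cancer, and MCF10A is a non-tumorigenic, immortalized line of mammary epithelium; each kind of cell was thus represented by 1 line. No separate cultures are named, so p-values do not measure the spread between repeated cultures. Their error rests on how far the siRNA difference disagreed between the lines, taken over genes of similar brightness.

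The p53 protein is a transcription factor that is stabilised by DNA damage and other stresses and binds response elements made of a pair of short half-sites. Its targets halt the cell cycle, repair DNA, lower oxidative stress or promote cell death, and one of them, MDM2, encodes the ubiquitin ligase that marks p53 itself for destruction. The related factor p63, a marker of basal epithelium, can bind the same kind of element.

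Matches to the p53 consensus near the annotated starts are shown because p53 acts on its targets through elements of this form. RefSeq promoter windows (GRCh38.p14, 250 bases before to 50 after each annotated start) were searched for 8 of the 10 genes, in 15 windows. GADD45A and TP53INP1 were not searched. A pair of p53 half-sites of 10 bases each, at most 3 bases apart, with the core C and G of each half-site intact and at most 3 mismatches to the consensus in all, was found in windows of 4 genes. The consensus reads the same on both strands, so 1 scan covers both. Such a pair lies in 4.75% of all 35116 windows and in at least 1 window of 5.77% of all genes. The best match in each gene, with the 20-base pair in capitals and up to 5 flanking bases in lower case, reads 5′ to 3′ on the gene's strand:
MDM2: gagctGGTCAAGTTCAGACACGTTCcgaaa
FAS: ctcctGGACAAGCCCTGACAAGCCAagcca
SESN1: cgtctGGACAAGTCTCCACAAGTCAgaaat
GDF15: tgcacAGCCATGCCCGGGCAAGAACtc
The MDM2 stretch is chr12:68808918-68808947 on the plus strand, its pair begins 94 bases before an annotated start and it holds 2 mismatches, 1 in each half-site. The FAS stretch, chr10:88991304-88991333 on the plus strand, begins its pair 122 bases before a start and has 2 mismatches, both in the second half-site. The SESN1 stretch, chr6:109009013-109009042 on the minus strand, has its pair 49 bases before a start, with an exact first half-site and 3 mismatches in the second. In GDF15 the pair lies after the start, from base 29, in the stretch chr19:18386181-18386207 on the plus strand, with 3 mismatches. An exact half-site, held by 6.63% of all windows, occurred in windows of FAS and SESN1 only among the 8 genes. A match is a description of letters and shows no binding.

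No such pair lay in the windows of CDKN1A, SFN, BTG2 and TP53I3. The long-known p53 elements of CDKN1A lie farther upstream than this window reaches. The 250 bases before its start (chr6:36678464-36678713, plus strand) are given to show its proximal promoter. Capitals mark 3 copies of the GC box GGGCGG that do not overlap. A further copy begins on the final base of the last marked copy and is otherwise in lower case:
CDKN1A: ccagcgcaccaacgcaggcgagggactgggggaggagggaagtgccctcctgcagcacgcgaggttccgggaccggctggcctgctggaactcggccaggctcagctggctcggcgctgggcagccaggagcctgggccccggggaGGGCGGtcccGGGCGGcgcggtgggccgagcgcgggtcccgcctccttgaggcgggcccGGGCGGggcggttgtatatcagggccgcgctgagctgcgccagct
The GC box, searched on both strands, is common: 44.95% of all windows hold one.

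On each array a gene counted as above background when its intensity exceeded the upper 1% of that array's background, a limit between 121 and 122. Between 13909 and 14147 of the 37810 names passed it on each array. FOXF2, the targeted gene, had intensities of 123 with FOXF2 siRNA and 259 with control siRNA in MDA-MB-231, and of 143 with FOXF2 siRNA and 241 with control siRNA in MCF10A, so in each line the FOXF2 siRNA array was the lower. Of 9 markers of basal-like mammary epithelium, 8 were lower in MDA-MB-231 (the keratin genes KRT5, KRT14, KRT17 and KRT6A among them) and 3 were above background there. Of 7 markers of the mesenchymal-like line, VIM and AXL were higher in MDA-MB-231, ZEB1 was above background there and not in MCF10A, LOX was lower, and the other 3 were not called. Of 5 fibroblast markers, COL1A2 and COL3A1 were at background on all arrays, COL1A1 was above it on the MCF10A FOXF2 siRNA array (122) and PDGFRB on the FOXF2 siRNA array of each line (141 in MDA-MB-231 and 136 in MCF10A). The fifth, DCN, was at background in MDA-MB-231 and read 852 with FOXF2 siRNA and 333 with control siRNA in MCF10A, a log2 difference of 1.63. The uncorrected intensities of these 5 markers summed to 558 with FOXF2 siRNA and 489 with control siRNA in MDA-MB-231. In MCF10A they summed to 1287 with FOXF2 siRNA and 763 with control siRNA. Each sum includes the background of every marker, which peaked near 102 on each array, so it is not marker signal alone. Of 4 endothelial markers, PECAM1 was above background on all arrays (142 to 190), KDR on the MDA-MB-231 control siRNA array (134), and CDH5 and VWF on none. Of 4 blood cell markers with a row, CD14 was above background on both MCF10A arrays and the MDA-MB-231 control siRNA array, and PTPRC, CD3E and HBB on none. The part of these markers in the results was not tested.

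The first comparison asks how the p53 targets differ between the metastatic and the normal-like line. All 9 measured targets had lower intensities on both MDA-MB-231 arrays than on both MCF10A arrays. With the 4 arrays in 1 limma model with cell line and siRNA as terms, 8 of the 9 were lower in MDA-MB-231 with an adjusted p below 0.05 and at least 1 on the log2 scale, and none was higher. Over all 20747 genes tested, 5.95% were called lower and 5.75% higher. BTG2 and FAS were above background in MCF10A alone and entered the test through that line, so they could only be called lower. Of the 6 targets above background on all 4 arrays, 5 were called lower, beside 7.29% of the 9962 such genes, and their median log2 difference was -1.88, beside 0.04 over those genes. In RNA from whole cultures, fewer cells with a transcript and less of it per cell cannot be told apart. Every log2 difference below is MDA-MB-231 minus MCF10A on the background-corrected scale unless another comparison is named.

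**Figure D1:**
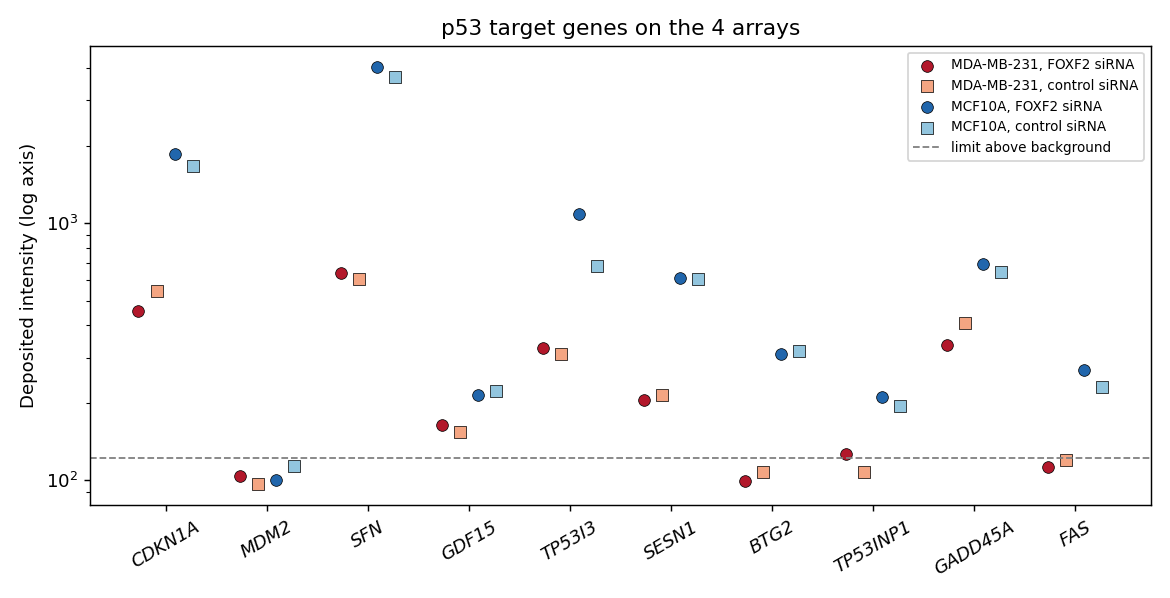
Deposited intensity (log axis) of each p53 target on the 4 arrays, with 1 point per array; the dashed line is the limit above background. The MDA-MB-231 points lie below the MCF10A points for every gene but MDM2, whose 4 points, from 96.5 to 114, lie under the limit.

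Among targets that act on the cell cycle, CDKN1A encodes p21, the inhibitor of cyclin-dependent kinases through which p53 halts cells in G1. Its intensity was 455 with FOXF2 siRNA and 546 with control siRNA in MDA-MB-231, against 1852 with FOXF2 siRNA and 1666 with control siRNA in MCF10A. The lines did not overlap, and CDKN1A was lower in MDA-MB-231 by a log2 difference of -2.02 (SE 0.20, limma adjusted p = 1.99e-21). SFN encodes 14-3-3 sigma, which holds cyclin B and CDK1 in the cytoplasm and so guards the G2 checkpoint. SFN had intensities of 642 with FOXF2 siRNA and 608 with control siRNA in MDA-MB-231, against 4047 with FOXF2 siRNA and 3704 with control siRNA in MCF10A. Its log2 difference was -2.81 (SE 0.19, limma adjusted p = 1.33e-45), and it was nearly the same on the FOXF2 siRNA arrays (-2.83) and on the control siRNA arrays (-2.80). SFN is also known as a gene of keratinocytes and other epithelia; the basal epithelial markers moved the same way between the lines, and their part in this result was not tested.

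BTG2 encodes an antiproliferative protein that recruits the deadenylase complex to messenger RNAs. It read 99.4 with FOXF2 siRNA and 107 with control siRNA in MDA-MB-231, neither above background, against 309 with FOXF2 siRNA and 318 with control siRNA in MCF10A. With only an upper limit in MDA-MB-231, BTG2 was at least 6.49-fold higher in MCF10A on the background-corrected scale. Its limma adjusted p of 1.09e-19 rests on MDA-MB-231 values at background and adds nothing to that bound. Such bounds set the mean of the line above background against, on each array of the other line, the higher of that gene's value and the lowest value above background, and depend on the background correction. GADD45A encodes a stress sensor that binds PCNA and p21 and takes part in growth arrest and repair. It had 337 with FOXF2 siRNA and 407 with control siRNA in MDA-MB-231, against 695 with FOXF2 siRNA and 646 with control siRNA in MCF10A. Its log2 difference of -1.04 (SE 0.22, limma adjusted p = 4.29e-05) was only just past the required size. GADD45A fell short of that size without background correction (-0.86), with an offset of 50 (-0.96) and on the control siRNA arrays alone (-0.80). With line as the only term, the same held without the MCF10A FOXF2 siRNA array (-0.98) and without the MDA-MB-231 FOXF2 siRNA array (-0.86). It was also not called when limma used 1 prior variance at all levels of brightness.

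Among targets tied to oxidative stress and metabolism, TP53I3 encodes a quinone oxidoreductase-like enzyme linked to reactive oxygen species and cell death. Its intensities were 327 with FOXF2 siRNA and 309 with control siRNA in MDA-MB-231, against 1081 with FOXF2 siRNA and 682 with control siRNA in MCF10A. The 2 MCF10A values stood farther apart than those of any other target, and the log2 difference between lines was -1.73 (SE 0.22, limma adjusted p = 2.43e-13). It was -2.05 on the FOXF2 siRNA arrays and -1.42 on the control siRNA arrays. SESN1 encodes sestrin 1, a brake on mTORC1 signalling under stress. SESN1 had 206 with FOXF2 siRNA and 214 with control siRNA in MDA-MB-231, against 612 with FOXF2 siRNA and 606 with control siRNA in MCF10A. The values within each line were close together, and the log2 difference was -2.08 (SE 0.24, limma adjusted p = 6.44e-16).

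Among targets of cell death and secreted signals, FAS encodes the death receptor CD95. It read 113 with FOXF2 siRNA and 120.0 with control siRNA in MDA-MB-231, neither above background, against 268 with FOXF2 siRNA and 231 with control siRNA in MCF10A. FAS was thus at least 4.63-fold higher in MCF10A on the background-corrected scale, and its limma adjusted p of 2.26e-10 likewise rests on values at background. TP53INP1 encodes a nuclear protein that promotes p53-dependent death and autophagy. It had 127 with FOXF2 siRNA and 107 with control siRNA in MDA-MB-231, of which only the first was above background, against 211 with FOXF2 siRNA and 195 with control siRNA in MCF10A. Its log2 difference of -1.88 (SE 0.38, limma adjusted p = 7.89e-06) was not called without background correction (-0.80). With line as the only term, TP53INP1 was also not called without the MCF10A FOXF2 siRNA array (-1.78), the MDA-MB-231 control siRNA array (-1.52) or the MDA-MB-231 FOXF2 siRNA array (-2.23).

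GDF15 encodes a secreted stress cytokine of the TGF-beta superfamily. Its intensities were 164 with FOXF2 siRNA and 155 with control siRNA in MDA-MB-231, against 215 with FOXF2 siRNA and 223 with control siRNA in MCF10A. The lines did not overlap, but the log2 difference of -0.86 (SE 0.31, limma adjusted p = 0.0319) was under the size of 1, so GDF15 was not called. MDM2 read 104 with FOXF2 siRNA and 96.5 with control siRNA in MDA-MB-231, against 100.3 with FOXF2 siRNA and 114 with control siRNA in MCF10A. All 4 MDM2 values were under the background limit, so no difference can be given for it, and 4 probes carry its name in the probe-level table. CDKN1A, TP53I3, TP53INP1, GADD45A and FAS carry 2 probes each there and the other 4 genes 1. How the probes of a name were combined is not given in the sources used here, and its effect was not tested.

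**Figure D2:**
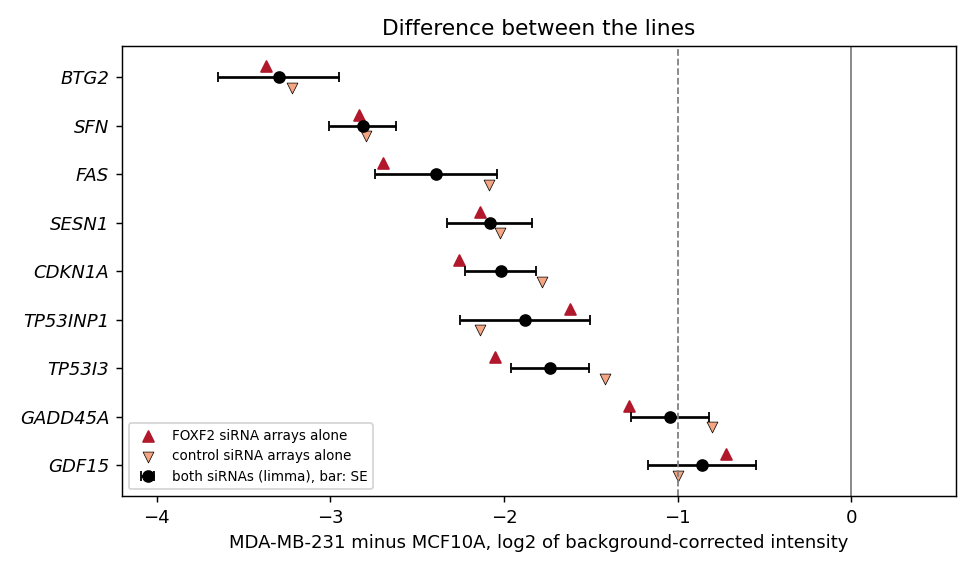
Difference between the lines for the 9 measured p53 targets, in log2 of background-corrected intensity; black points are the limma estimate over both siRNAs with its SE, triangles the FOXF2 siRNA arrays alone or the control siRNA arrays alone. All points lie left of 0, and 8 estimates lie at or beyond the dashed line at -1, with GDF15 at -0.86. All points of BTG2 and FAS, and the control siRNA triangle and in part the estimate of TP53INP1, rest on MDA-MB-231 values that were not above background.

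The error of these differences rests on strong sharing across genes. The model left 1 residual degree of freedom, which is the disagreement between the lines in the siRNA difference. Differing responses of the lines thus served as noise, and limma took the spread of each gene wholly from genes of similar brightness. With no sharing between genes, 0 of the 9 targets and 0 of all 20747 genes were called between the lines, the targets' lowest adjusted p was 0.436, and 3 of the 9 targets and 2173 of all genes had an unadjusted p under 0.05. The size also depends on the background: without its correction the log2 differences of BTG2, FAS and GDF15 were -1.60, -1.10 and -0.46, and 6 of the 9 targets were called.

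To see whether other parts of the p53 pathway differed in the same way, 4 further lists were read in the same fit. For comparison with their counts, 5.95% of all genes tested were called lower in MDA-MB-231 and 5.75% higher. Of 20 genes of the p53 family and its regulators, 18 were above background on at least 1 array; 1 was called higher and 3 lower in MDA-MB-231, with a median log2 difference of -0.19. TP63, the p63 gene, read 121 with FOXF2 siRNA and 98.0 with control siRNA in MDA-MB-231, both at background, against 369 with FOXF2 siRNA and 504 with control siRNA in MCF10A. TP63 was at least 9.81-fold higher in MCF10A; it entered the test through MCF10A alone, and its part in the lower target levels of MDA-MB-231 was not tested.

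TP73, another family member, had a difference of -0.41 (limma adjusted p = 0.732). MDM4, the inhibitory partner of MDM2, was at background on both MDA-MB-231 arrays (117 with FOXF2 siRNA and 90.8 with control siRNA), against 177 with FOXF2 siRNA and 130 with control siRNA in MCF10A, and was at least 1.79-fold higher in MCF10A, through which alone it entered the test. PPP1R13L, which encodes the p53 inhibitor iASPP, was lower in MDA-MB-231 by a log2 difference of -2.09 (limma adjusted p = 6.74e-16). EP300, an acetyltransferase that serves p53 as a coactivator, was the regulator called higher, by 2.43 (limma adjusted p = 2.91e-14).

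Of 45 further p53-activated targets, 44 had a row and were above background on at least 1 array. In MDA-MB-231, 11 of them were called lower and 2 higher, beside 5.95% and 5.75% of all genes tested. Their median log2 difference was -0.22, beside 0.03 over all genes tested. PHLDA3, an inhibitor of AKT signalling, read 123 with FOXF2 siRNA and 108 with control siRNA in MDA-MB-231, against 693 with FOXF2 siRNA and 704 with control siRNA in MCF10A. Its first value was only just above background and its second not above it, so only a bound is given: PHLDA3 was at least 17.2-fold higher in MCF10A on the background-corrected scale, and its log2 difference was -2.60 without the correction. SPATA18, which acts in mitochondrial quality control, and TRIM22, an interferon-inducible gene, were at background in MDA-MB-231 and at least 3.95-fold and 2.75-fold higher in MCF10A. SPATA18 and TRIM22 entered the test through MCF10A alone, so they could only be called lower. SUSD6 had a difference of -1.84. The 2 genes called higher in MDA-MB-231 were PMAIP1, which encodes the pro-apoptotic BH3-only protein NOXA (1.96, limma adjusted p = 1.86e-12), and TGFA, a ligand of the EGF receptor (1.13, limma adjusted p = 6.21e-06). The other 31 of these targets were not called.

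Of 21 relatives of the 10 targets, such as other GADD45, sestrin, BTG, 14-3-3 and CIP/KIP genes, 1 was called lower in MDA-MB-231. That is near the 5.95% of all genes tested that were called lower. None of the relatives was called higher, where 5.75% of all genes were, and their median was 0.07. The 1 gene was TOB1, an antiproliferative relative of BTG2 (-1.83, limma adjusted p = 1.86e-10). Of 22 cell cycle genes that p53 is known to lower through p21 and the DREAM complex, such as CCNB1 and PLK1, none was called between the lines. Their median was 0.37, and 8 of the 22 had an adjusted p under 0.05 in limma at sizes of 0.64 to 0.92, all higher in MDA-MB-231, where 10.2% of all genes tested were higher at that adjusted p alone.

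**Figure D3:**
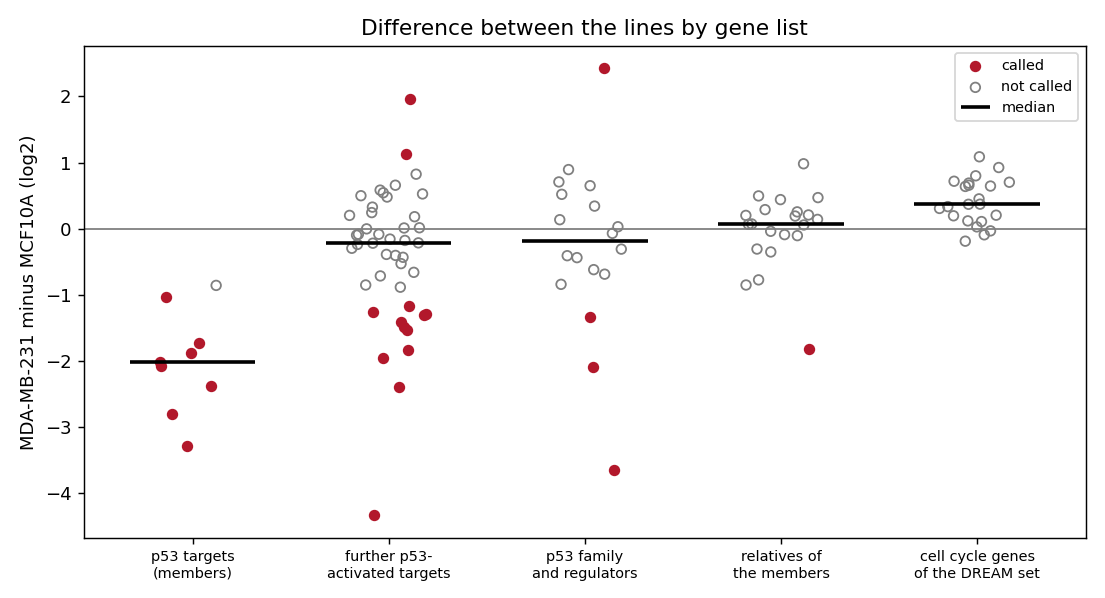
Difference between the lines (MDA-MB-231 minus MCF10A, log2) for each gene of 5 lists; filled points were called by limma, open points were not, and the black line is the list's median. The 9 p53 targets lie between -3.30 and -0.86, while medians of the other lists lie between -0.22 and 0.37.

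By pattern over the 4 arrays, the genes most like CDKN1A were PIK3R1, F11R and COL16A1, among 7459 other names with a current symbol above background on all arrays. Likeness was the root mean square distance of log2 values centred on each gene's mean, which was 0.050 for PIK3R1, 0.059 for F11R and 0.074 for COL16A1. Among the targets themselves, SESN1 was the closest to CDKN1A at a distance of 0.099, and GDF15 the farthest of those above background on all 4 arrays at 0.61. PIK3R1 encodes a regulatory subunit of PI3-kinase, F11R a tight-junction adhesion protein and COL16A1 a collagen chain. With 4 arrays from 2 lines, likeness is mostly a like difference between the lines.

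The second comparison asks what FOXF2 siRNA did to the p53 targets. In MCF10A, 0 of 9 measured targets differed 2-fold between the siRNAs, where 2.84% of 16543 genes did, and in MDA-MB-231 0 of 7 did, where 2.58% of 16793 genes did. With 1 array per group these within-line differences have no test. At 1.5-fold, 1 of 9 targets in MCF10A passed, beside 14.9% of all genes, and 0 of 7 in MDA-MB-231, beside 14.8%. Over both lines, limma called 0 of 9 targets, beside 0.217% of all genes. The lowest unadjusted limma p among the targets was 0.0579, so none was under 0.05, where 1130 of 20747 genes were. With 1 prior variance at all levels of brightness, or with no sharing between genes, 0 of all 20747 genes were called. The count of 0 targets under those settings therefore says nothing about the targets. In the main fit, where the spread came from genes of similar brightness, FOXF2 itself fell by 1.85 on the log2 scale (limma adjusted p = 3.26e-05). With 1 prior variance or with no sharing FOXF2 was not called either.

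**Figure D4:**
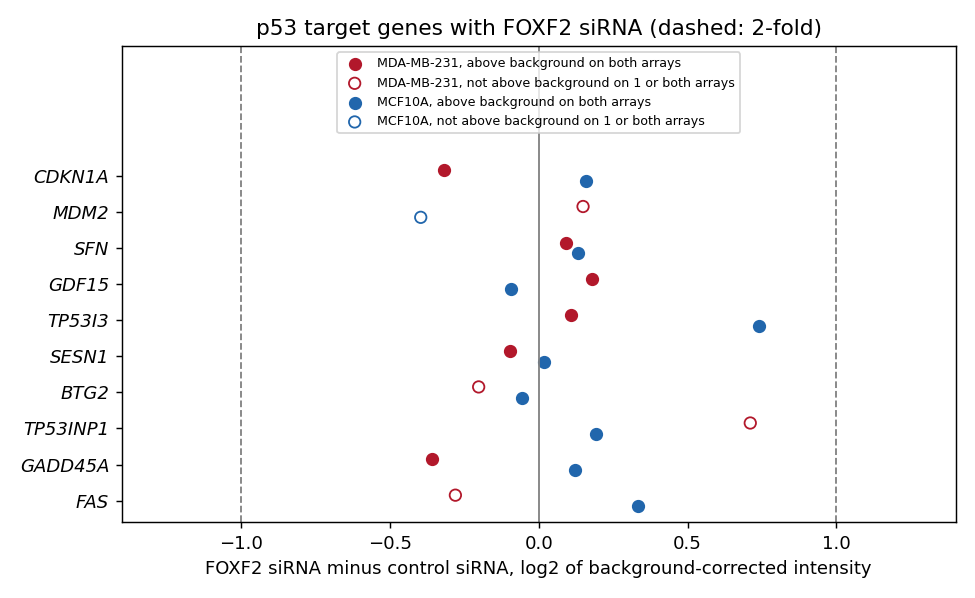
FOXF2 siRNA minus control siRNA in each line for the 10 p53 targets, in log2 of background-corrected intensity; open points were not above background on 1 or both arrays of the line, and dashed lines mark 2-fold. All points lie inside the dashed lines, with TP53I3 in MCF10A at 0.74 and TP53INP1 in MDA-MB-231 at 0.71 the farthest from 0.

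The target that passed 1.5-fold was TP53I3 in MCF10A. As given above, it read 1081 with FOXF2 siRNA and 682 with control siRNA, a log2 difference of 0.74, while its difference in MDA-MB-231 was 0.11. For comparison, the robust SD of these differences over genes measured on both arrays of a line was 0.37 for MDA-MB-231 and 0.34 for MCF10A. Over genes with a mean log2 value of 8 to 12 it was 0.32 for MDA-MB-231 and 0.30 for MCF10A. Averaged over the lines, TP53I3 differed by 0.42 (SE 0.22, limma adjusted p = 0.945), which is not past the threshold. FAS had a difference of 0.33 in MCF10A, CDKN1A of 0.16, SFN of 0.13 and GADD45A of 0.12. TP53INP1, SESN1, BTG2 and GDF15 had differences of 0.19, 0.02, -0.05 and -0.09 there. Except for TP53I3 these were within 1 robust SD of all genes.

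In MDA-MB-231, GADD45A and CDKN1A had differences of -0.36 and -0.32, both within 1 robust SD of all genes, but GADD45A was outside the robust SD of 0.32 of genes with a mean log2 value of 8 to 12. GDF15, TP53I3, SFN and SESN1 had differences of 0.18, 0.11, 0.09 and -0.10. TP53INP1 was above background with FOXF2 siRNA alone, and its difference there is at least 0.21 on the background-corrected log2 scale. BTG2 and FAS were at background on both MDA-MB-231 arrays and give no difference. The median over measured targets was 0.09 in MDA-MB-231 and 0.13 in MCF10A, beside 0.00 and -0.01 over all genes measured in the line, in the same order.

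Of the wider pathway, MDM4 was higher with FOXF2 siRNA by 1.05 in MCF10A. It was the 1 of 18 measured regulators past 2-fold, where 2.84% of all genes were. Its intensities there, 177 with FOXF2 siRNA and 130 with control siRNA, were dim, and their uncorrected ratio was 1.36. Among 42 further targets measured in MCF10A, 2 were at least 2-fold higher, where 1.7% of all genes were, and 3 at least 2-fold lower, where 1.14% were. PLK2, a polo-like kinase, was higher by 1.31, with 182 with FOXF2 siRNA and 125 with control siRNA, an uncorrected ratio of 1.46. EDA2R, a TNF receptor family member, was higher by at least 1.06. Among those lower were the decoy receptors for TRAIL, TNFRSF10C with a bound of -1.39 and TNFRSF10D with 137 with FOXF2 siRNA and 188 with control siRNA. The uncorrected ratio of TNFRSF10D was 0.73. For dim genes such as these, passing 2-fold depends on the background correction. In MDA-MB-231 none of 38 was 2-fold different, where 2.58% of all genes were.

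At least 1.5-fold lower in each line were 2 of 36 further targets, where 0.921% of 12589 genes were. DRAM1, a lysosomal protein of p53-driven autophagy, had 268 with FOXF2 siRNA and 371 with control siRNA in MDA-MB-231, and 225 with FOXF2 siRNA and 354 with control siRNA in MCF10A. TNFRSF10C had 92.8 with FOXF2 siRNA and 154 with control siRNA in MDA-MB-231, and 116 with FOXF2 siRNA and 179 with control siRNA in MCF10A, so its FOXF2 siRNA values were at background. Neither passed limma over both lines. Among relatives of the targets in MCF10A, 2 of 20 were past 2-fold, both higher, where 1.7% of all genes were 2-fold higher. GADD45B read 348 with FOXF2 siRNA and 180.3 with control siRNA (1.48). BTG1 read 2095 with FOXF2 siRNA and 1038 with control siRNA (1.08). In MDA-MB-231 GADD45B and BTG1 had differences of -0.30 and 0.20. Of the cell cycle genes lowered through p21, 20 of 21 had negative differences in MCF10A (median -0.33), where 50.6% of all genes did, and 14 of 22 in MDA-MB-231 (median -0.14), where 50.3% did. None of them was 2-fold different in MCF10A, where 2.84% of all genes were. In MDA-MB-231 MYBL2 was at least 2-fold higher, where 1.2% of all genes were, with 177 with FOXF2 siRNA and 120 with control siRNA, the second not above background, and a bound of 1.37 on the log2 scale. At 1.5-fold, 1 was lower in MCF10A, and 4 were lower and 1 higher in MDA-MB-231. Of all genes, 14.9% in MCF10A and 14.8% in MDA-MB-231 passed 1.5-fold in either direction.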

How the data were processed

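Gene-level intensities were used as the authors deposited them: 1 linear intensity per gene name and array from Illumina BeadChips with biotinylated cRNA, per the labels. Medians of the 4 columns lay between 111 and 112. How the values were normalized and 48797 probes combined into 37810 names is not given in the sources used here. Of the probe-level table, 8 columns of per-sample values match no sample's labels and were not used.

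Each array's background had as its mean the peak of a kernel density (bandwidth 1.5) over intensities below 140, and as its SD the spread on the lower side of that peak. Values were corrected with limma's normexp signal, 16 was added and log2 taken. Tests used limma 3.58.1 in R 4.3.3 (cell line and siRNA, eBayes with a trend, Benjamini-Hochberg over all genes above background on at least 1 array). The number of arrays limits the precision. Slide or scan effects were not tested, and no array information was used. Where the lists use a newer symbol than the table, the older name was matched by hand (TP63 as TP73L, for example); TIGAR and HBA1 were not analysed here.

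The members, lists, background estimate and tests were chosen with earlier results of these data known. All members were named. From each list came up to 4 genes called between lines in each direction and up to 2 that differed 1.5-fold in both lines, with TP63, TP73, MDM4, FOXF2 and 3 genes most like CDKN1A. Genes named for a 2-fold difference within a line were chosen after their values were seen. A few genes that these rules select are not reported here. Alternatives tried were no background correction, an offset of 50, a common median, quantile normalization, limits at the upper 5% and 0.1%, no filter, limma with 1 prior variance at all brightnesses or with no sharing between genes, line as the only term with each array left out, each siRNA alone, 1.5-fold, and 2-fold above background on both arrays.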

Additional observations from a re-analysis of the deposited data

Results flagged for a closer look

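Of the 6 p53 targets above background on all 4 arrays, 4 had differences between FOXF2 siRNA and control siRNA of opposite sign in the lines. With 1 array per group the difference between the responses was not tested, and the difference of each gene within each line lay inside 1 robust SD of all genes in its line (0.37 in MDA-MB-231, 0.34 in MCF10A). GADD45A in MDA-MB-231 lay outside the robust SD of genes with a mean log2 value of 8 to 12, which was 0.32. The response in MDA-MB-231 minus that in MCF10A was -0.48 for GADD45A (-0.36 in MDA-MB-231 and 0.12 in MCF10A) and -0.48 for CDKN1A (-0.32 and 0.16 in the same order). It was 0.27 for GDF15 (0.18 in MDA-MB-231 and -0.09 in MCF10A) and -0.11 for SESN1 (-0.10 in MDA-MB-231 and 0.02 in MCF10A).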

How the results depend on the processing

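Between the lines, 8 p53 targets were called lower in MDA-MB-231. Under the 16 settings listed with the methods 6 to 8 were, except with no sharing of the spread between genes in limma, where 0 were. With each siRNA alone a line has 1 array and there is no p-value, so only the size of the log2 difference was counted there. Counting only the 6 targets above background on all 4 arrays, a choice made after seeing the data, 5 were called lower. With line as the only term and each array left out in turn the number was 6 to 8. No target's difference between lines changed sign under any of the 16 settings. Apart from the setting with no sharing, the calls lost under these were those of GADD45A (6 settings) and TP53INP1 (4 settings). With FOXF2 siRNA, 0 targets were called over both lines under the 9 alternatives run for that comparison, and 0 differed 2-fold in either line under the 8 run at 2-fold; at 1.5-fold the number in MCF10A was 1, which is TP53I3. With 1 prior variance at all brightnesses, or with no sharing between genes, 0 of all 20747 genes were called over both lines. Dim signal limits BTG2, FAS and TP53INP1 in MDA-MB-231 and MDM2 in both lines. The comparison over both lines sets FOXF2 siRNA against control siRNA within each line, since line is a term of the fit; the labels give no replicate numbers.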
